A study of Mus musculus with 6 samples.

Results

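The axon guidance ligands and receptors comprised the Eph receptors and ephrins, the semaphorins of classes 3 to 7 with their plexins and neuropilins, the Slits and Robos, and the netrins and netrin-Gs with Dcc and the Unc5 receptors. Members were taken from the deposited gene table by a rule on gene symbols alone, although the group was proposed with earlier results of these data known. This gave 62 of the 13072 genes listed, and all 62 passed the filter on low values that left 12915 genes for testing. Another 9 protein-coding genes of the GENCODE M21 annotation match the same symbols (Epha1, Ntn1, Ntn3, Ntn5, Plxnb3, Robo4, Sema3c, Sema3d and Slit3) and are not analysed here. The libraries came from whole retinas of C57BL/6 mice at postnatal day 7, with 3 libraries labelled CTGF-/- and 3 labelled wild type (WT). The labels give the CTGF-/- mice as deficient for Ctgf, which encodes connective tissue growth factor (a secreted protein of the matrix), through an inducible Cre/lox system. The promoter or tissue that drives the Cre, the induction scheme and whether the WT mice carried Cre are not stated in the sources at hand. Polyadenylated RNA was read from both ends on strand-specific libraries, and each gene's level is given in FPKM, fragments per kilobase of transcript, scaled to the library total.

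Guidance proteins steer growing axons by attraction or repulsion. Ephrins are cell-bound ligands of Eph receptor tyrosine kinases, and in the mouse visual system their gradients place retinal ganglion cell axons on the superior colliculus. Slits are secreted repellents read by Robo receptors, netrins act through Dcc and Unc5 receptors, and semaphorins act through plexins, with neuropilins as coreceptors for most class 3 members. Several of the same proteins also act on blood vessels, among them Efnb2 with Ephb4, and Sema3e with Plxnd1.

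In CTGF-/- retinas no guidance gene passed the adjusted threshold, and the differences that reached the looser one ran mostly downward. Among the 62 genes 0 had an adjusted p under 0.05 in the limma test over all genes, where 0.0465% of the 12915 genes tested did. At an unadjusted p under 0.05, 10 guidance genes were lower in CTGF-/- retinas and 1 was higher. That is 16.1% of the members on the lower side, against 5.49% of all genes tested, while 3.83% of all genes tested were on the higher side. The lower genes were Efna5, Robo2, Dcc, Efnb2, Epha3, Robo1, Slit2, Sema3e, Epha5 and Sema5a, and the higher gene was Ntng2. In all 43 of the 62 had a negative difference (CTGF-/- minus WT in mean log2(FPKM + 1)) and 19 a positive one. The median difference was -0.07 over the members and -0.02 over all genes tested. In 15 members every CTGF-/- library lay below every WT library, where 10.9% of all genes tested did so, and in 0 members every CTGF-/- library lay above, where 7.53% of all genes tested did so.

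Every one of the 11 genes had an adjusted p of 0.533, so none of them is called changed below, and "at the looser threshold" always means an unadjusted p under 0.05. The count rested on single libraries. It was 3 without WT replicate 2, 4 without WT replicate 3, 4 without CTGF-/- replicate 1 and 7 without CTGF-/- replicate 2, against 11 with all 6 libraries. In this order 2, 4, 4 and 7 of the 62 members were lower. Of all genes tested 2.69%, 5.11%, 6.78% and 4.14% were lower in the same fits. Without WT replicate 2, WT replicate 3 or CTGF-/- replicate 1, the members' lower share was therefore near that of all genes.

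**Figure D1:**
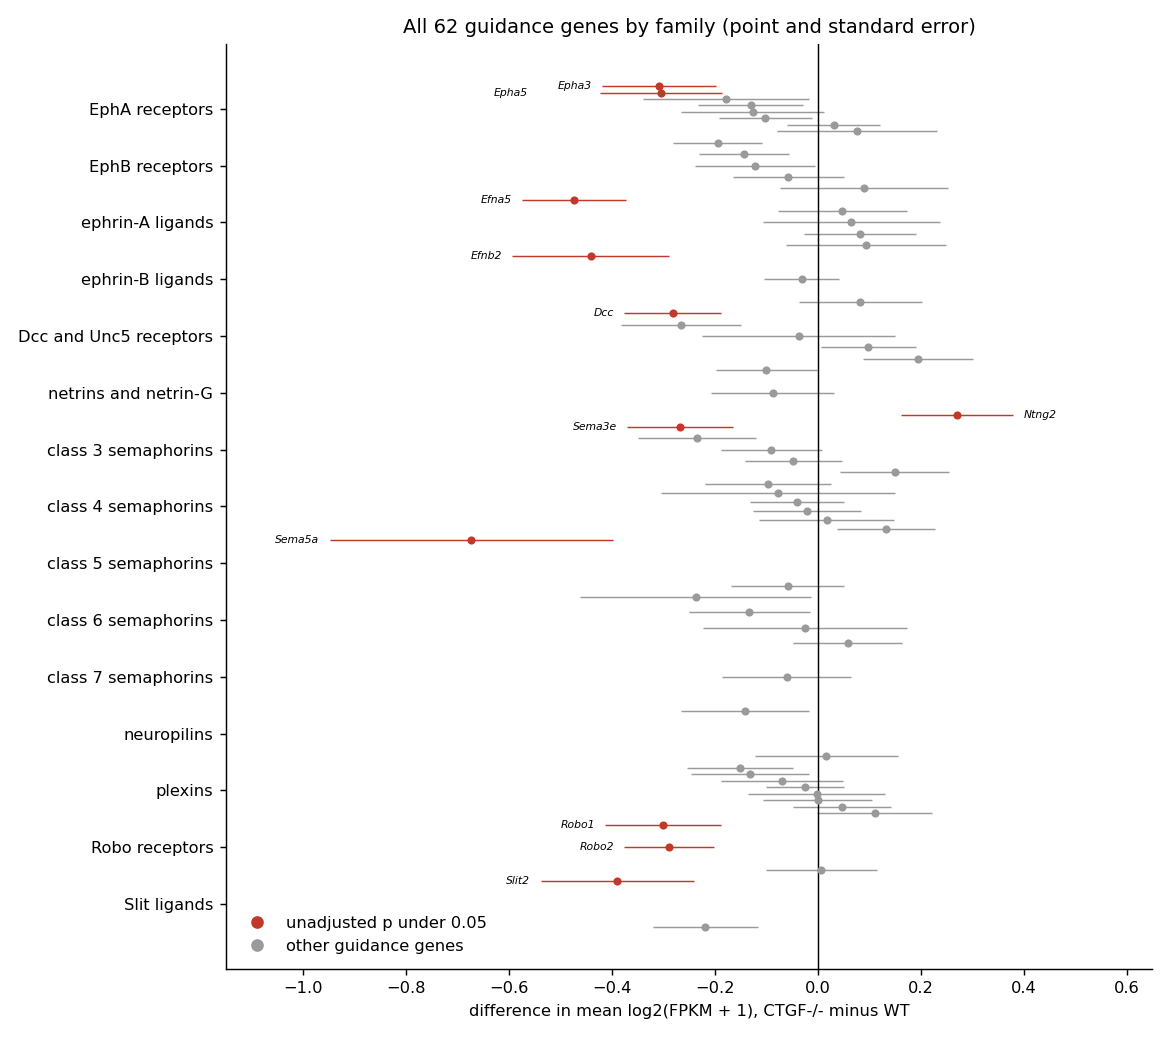
Difference in mean log2(FPKM + 1), CTGF-/- minus WT, for all 62 guidance genes, with the standard error, arranged by family. Red points mark the 11 genes at an unadjusted p under 0.05, of which 10 lie left of 0 and Ntng2 lies right of it.

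Facts of the libraries bear on these values. Ctgf itself had 0.587, 1.0002 and 0.526 FPKM in CTGF-/- replicates 1 to 3, against 0.932, 0.777 and 1.51 FPKM in WT replicates 1 to 3. Its groups overlapped, the difference was -0.28 ± 0.17 (SE) and the adjusted p was 0.571, so the targeted gene does not check the labels. The summed FPKM of all genes was 217674 to 230474 in CTGF-/- libraries and 208436 to 216436 in WT libraries. Transcripts listed at 0 numbered 1875 in CTGF-/- replicate 2 and 716 to 861 in the other libraries. Lens genes, 7 in number, summed to 294, 158 and 2554 FPKM in CTGF-/- replicates and to 315, 3.42 and 6.52 FPKM in WT replicates, with 6 of them higher at an unadjusted p under 0.05 and 3 at 0 in at least 1 library. The 6 retina markers Crx, Otx2, Rcvrn, Pax6, Rlbp1 and Nrl summed to 717 to 814 FPKM in CTGF-/- libraries and to 603 to 677 FPKM in WT libraries, without overlap. None was at 0, and 2 were higher at an unadjusted p under 0.05. Singly, Otx2, Rcvrn and Nrl were apart, with differences of 0.44, 0.52 and 0.45. Crx, Pax6 and Rlbp1 overlapped, at 0.06, -0.03 and -0.02. The separation is that of these 6 genes only, since 2 further retina markers are not in the sum. With FPKM alone the sequencing depth is unknown. The labels do not say whether separate animals gave the replicates, so each p-value measures only library-to-library spread, part of which may be technical. In RNA from a whole retina, fewer cells of a type and less RNA per cell cannot be told apart.

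Guidance genes were expressed over a wide range at this age. Epha8 had the highest mean FPKM over the 6 libraries, at 49.9 FPKM, followed by Plxnb2 at 32.3, Ntng2 at 27.4, Plxnb1 at 26.8 and Plxna2 at 24.9 FPKM. The median of the members was 4.79 FPKM, 16 members reached 10 FPKM and 58 reached 1 FPKM. Summed over the members, FPKM came to 465, 536 and 484 in CTGF-/- replicates 1 to 3, against 482, 544 and 498 in WT replicates 1 to 3, and these sums overlapped. The replicates were not alike: CTGF-/- replicate 1 was the lowest of the 6 libraries in 22 members, whereas CTGF-/- replicate 2 was the highest in 21 and the lowest in 12. WT replicates 2 and 3 were the highest in 20 and 17 members.

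The ephrin-A ligands hold the gene with the smallest p of the group. Efna5 encodes a membrane-anchored ephrin that repels retinal axons, and it lies at chr17:62604184-62881317 on the minus strand of GRCm38. Its level was 5.43, 4.49 and 4.73 FPKM in CTGF-/- replicates 1 to 3, against 7.00, 7.81 and 6.70 FPKM in WT replicates 1 to 3. Every CTGF-/- library lay below every WT library, with a mean of 4.88 ± 0.489 FPKM in CTGF-/- retinas and 7.17 ± 0.576 FPKM in WT retinas (SD, n = 3 each). Its CTGF-/- mean was 0.681 times the WT mean. On the log2(FPKM + 1) scale the difference was -0.47 ± 0.10 (SE), with an unadjusted limma p of 0.00197. It stayed between -0.54 and -0.42 when each library was left out in turn, and Efna5 alone among the 11 genes kept an unadjusted p under 0.05 under all 13 alternatives tried.

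The other 4 ephrin-A genes gave no such difference. Efna2, the ephrin-A gene with the highest FPKM, had 11.7, 17.4 and 10.9 FPKM in CTGF-/- retinas, against 12.5, 13.9 and 11.04 FPKM in WT retinas. CTGF-/- replicate 2 was its highest library, the groups overlapped, and the difference was 0.07 ± 0.17. Efna1, Efna3 and Efna4 differed by 0.05, 0.09 and 0.08 with overlapping groups.

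Efnb2, a transmembrane ephrin that marks arterial endothelium and is also made by retinal neurons, was the lower gene of the ephrin-B family (chr8:8617434-8661242, minus strand). It had 9.73, 9.88 and 14.1 FPKM in CTGF-/- replicates 1 to 3, against 14.4, 17.5 and 14.6 FPKM in WT replicates 1 to 3. The groups were apart by a narrow margin, since CTGF-/- replicate 3 lay just below WT replicate 1. The CTGF-/- mean was 0.727 times the WT mean and the difference was -0.44 ± 0.15 with an unadjusted p of 0.0221. That p was 0.0726 without CTGF-/- replicate 1, 0.0677 without CTGF-/- replicate 2 and 0.0788 without WT replicate 2. Efnb3, the highest ephrin-B gene, had 17.1, 18.2 and 18.3 FPKM in CTGF-/- retinas and 17.9, 18.8 and 18.2 FPKM in WT retinas, with overlap and a difference of -0.03 ± 0.07. Efnb1 differed by 0.08.

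Of the 8 EphA receptors, which bind ephrin-As, 2 were lower at the looser threshold, which is 25%, against 5.49% of all genes tested. Epha3 (chr16:63543538-63864158, minus strand) had 4.74, 3.89 and 5.26 FPKM in CTGF-/- retinas, against 5.74, 6.14 and 5.95 FPKM in WT retinas. Epha5 (chr5:84054761-84417382, minus strand), a receptor of retinal ganglion cell axons, had 10.2, 8.19 and 11.1 FPKM in CTGF-/- retinas, against 12.5, 13.0 and 11.4 FPKM in WT retinas. CTGF-/- replicate 2 was the lowest library of both genes, and neither gene's groups overlapped. Relative to WT, the CTGF-/- mean was 0.779 times as high for Epha3 and 0.799 times for Epha5. The difference was -0.31 ± 0.11 (unadjusted p 0.0259) for Epha3 and -0.31 ± 0.12 (unadjusted p 0.0349) for Epha5. Without WT replicate 2 these p-values were 0.0766 and 0.104, and without WT replicate 3 that of Epha3 was 0.0572. That of Epha5 was 0.0508 without CTGF-/- replicate 1, 0.0629 without CTGF-/- replicate 2, where its difference was -0.19, and 0.0875 without WT replicate 1.

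The most highly expressed EphA receptor, Epha8, did not follow them. Its level was 47.6, 60.6 and 45.5 FPKM in CTGF-/- retinas and 48.2, 57.3 and 40.4 FPKM in WT retinas, with overlapping groups and a difference of 0.08 ± 0.16. Epha2 had every CTGF-/- library below every WT library without reaching the threshold, at a difference of -0.13 ± 0.10 (unadjusted p 0.241). Epha4, Epha6, Epha7 and Epha10 differed by -0.10, -0.18, -0.13 and 0.03 with overlap.

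The 5 EphB receptors, which bind ephrin-Bs, had 0 genes at the looser threshold and a median difference of -0.12. Ephb2, the highest of them, had 10.1, 12.6 and 11.3 FPKM in CTGF-/- retinas, against 11.8, 13.0 and 10.8 FPKM in WT retinas, and its groups overlapped. Ephb4, the receptor of venous endothelium that pairs with Efnb2, lay just outside the threshold. It had 1.08, 1.09 and 0.951 FPKM in CTGF-/- retinas, against 1.32, 1.36 and 1.32 FPKM in WT retinas, without overlap, and its difference was -0.19 ± 0.09 with an unadjusted p of 0.0579. Ephb3 was also apart, at -0.14 ± 0.09 (unadjusted p 0.144).

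Slit and Robo genes were lower in the largest share of any of the signalling systems, 3 of 5 genes, against 5.49% of all genes tested. These 3, Robo2, Robo1 and Slit2, are among the guidance genes of 200 kb or more described below, of which 52.9% were lower. Robo2 (chr16:73892306-74411825, minus strand), the main Slit receptor of mouse retinal ganglion cells, had 8.44, 8.42 and 9.04 FPKM in CTGF-/- retinas, against 10.6, 11.7 and 10.02 FPKM in WT retinas. Its groups did not overlap, the CTGF-/- mean was 0.801 times the WT mean, and the difference was -0.29 ± 0.09 with an unadjusted p of 0.0121. Without WT replicate 2 that p was 0.0523. Robo1 (chr16:72663149-73046095, plus strand), a second Slit receptor, had 7.10, 9.09 and 7.70 FPKM in CTGF-/- retinas, against 9.28, 11.1 and 9.70 FPKM in WT retinas. Its groups were apart by a narrow margin, since CTGF-/- replicate 2 lay just below WT replicate 1. The CTGF-/- mean was 0.795 times the WT mean and the difference was -0.30 ± 0.11 with an unadjusted p of 0.0311, which was 0.102 when CTGF-/- replicate 1 was left out, 0.0836 without CTGF-/- replicate 3, 0.112 without WT replicate 2 and 0.0535 without WT replicate 3. Robo3, a divergent Robo known from commissural axons, had 6.01 to 6.63 FPKM in CTGF-/- retinas and 5.51 to 7.19 FPKM in WT retinas and a difference of 0.01 ± 0.11.

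Both Slit ligands lay lower in every CTGF-/- library than in any WT library. The same held for 10.9% of all genes tested and for 30.6% of those of 200 kb or more. Slit2 (chr5:47983138-48307733, plus strand), a secreted repellent, had 3.52, 3.19 and 4.203 FPKM in CTGF-/- retinas, against 4.41, 4.55 and 6.38 FPKM in WT retinas. WT replicate 3 was well above the other libraries. The CTGF-/- mean was 0.711 times the WT mean and the difference was -0.39 ± 0.15 with an unadjusted p of 0.0328. Without WT replicate 3 the difference was -0.25 and the p 0.0909, and that p was 0.0756 without CTGF-/- replicate 1 and 0.0930 without CTGF-/- replicate 2. Slit1 had a difference of -0.22 ± 0.10 (unadjusted p 0.0673).

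Among the netrin receptors, Dcc, which carries the attractive response to netrin-1, was lower at the looser threshold. It had 3.98, 3.79 and 4.45 FPKM in CTGF-/- retinas, against 4.81, 5.22 and 5.46 FPKM in WT retinas, without overlap. The CTGF-/- mean was 0.789 times the WT mean and the difference was -0.28 ± 0.09 with an unadjusted p of 0.0192. Leaving out CTGF-/- replicate 1, WT replicate 2 or WT replicate 3 gave a p of 0.0518, 0.0570 or 0.0570. Unc5c, a receptor for netrin repulsion, was apart and just outside the threshold, at -0.27 ± 0.12 (unadjusted p 0.0539). Unc5a, the highest of the 5 receptors, ran the other way, with 6.09, 7.06 and 6.15 FPKM in CTGF-/- retinas, against 4.87, 5.50 and 6.14 FPKM in WT retinas. CTGF-/- replicate 1 lay below WT replicate 3, and the difference was 0.19 ± 0.11 (unadjusted p 0.110). Unc5b and Unc5d differed by 0.10 and -0.04.

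Ntng2 was the only guidance gene on the higher side at the looser threshold. It encodes netrin-G2, a membrane-anchored relative of the netrins that binds the synaptic adhesion protein NGL-2 (Lrrc4) and not the netrin receptors, and lies at chr2:29194541-29253005 on the minus strand. It had 29.3, 33.8 and 27.0 FPKM in CTGF-/- retinas, against 22.6, 27.1 and 24.4 FPKM in WT retinas. CTGF-/- replicate 3 lay just below WT replicate 2, so the groups overlapped. The CTGF-/- mean was 1.22 times the WT mean and the difference was 0.27 ± 0.11 with an unadjusted p of 0.0403. That p was 0.0692 without CTGF-/- replicate 1, 0.0941 without CTGF-/- replicate 2, 0.139 without WT replicate 1 and 0.0887 without WT replicate 3, and with every library rescaled to the same FPKM total it was 0.140. It was 0.0810 without variance moderation and 0.0963 without WT replicate 1 and CTGF-/- replicate 3 together. The summed transcript values did not show the higher gene level, but they are not the same measure. The gene's own means were 30.0 FPKM in CTGF-/- retinas and 24.7 FPKM in WT retinas. Summed over the 5 listed Ntng2 transcripts, FPKM came to 48.1 ± 9.25 in CTGF-/- retinas and 47.1 ± 4.02 in WT retinas (SD, n = 3 each), with overlap. Ntn4 and Ntng1 differed by -0.10 and -0.09, with overlap.

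**Figure D2:**
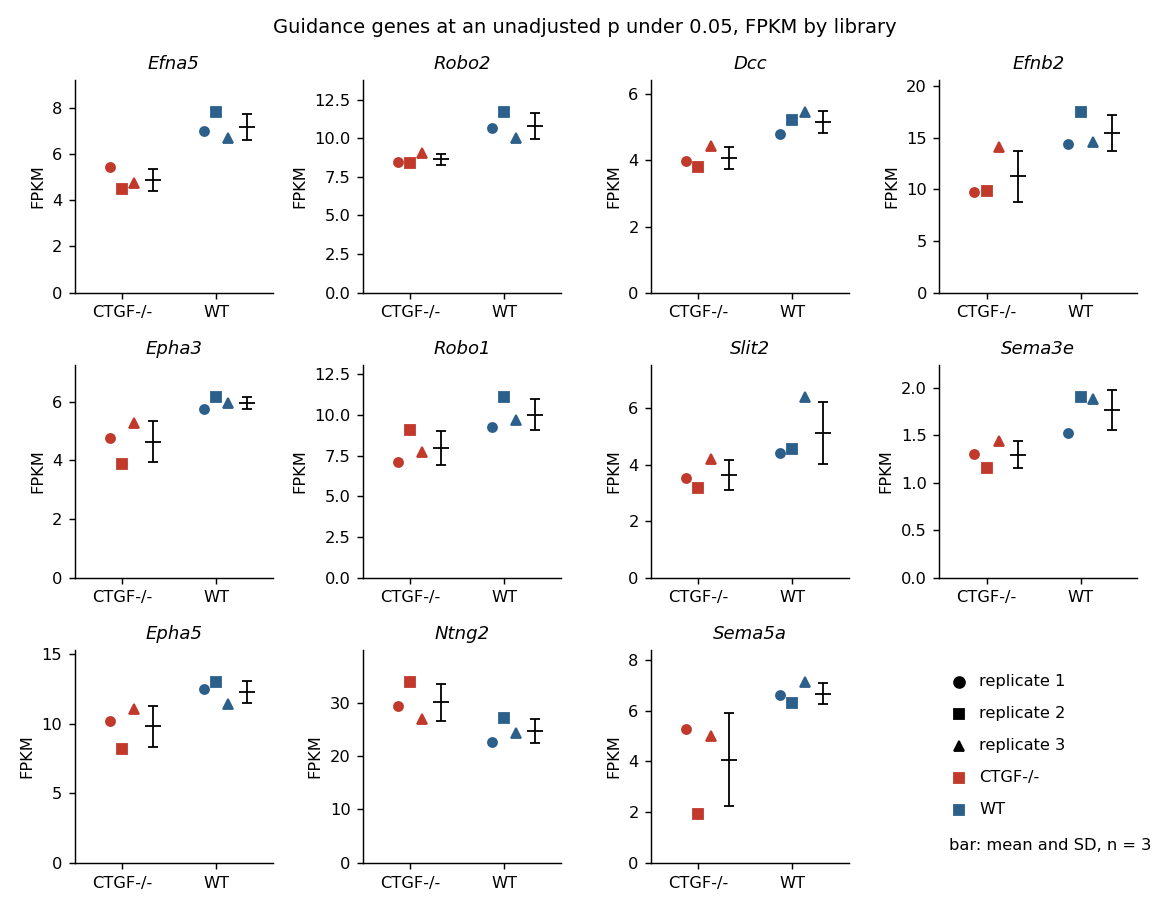
FPKM of the 11 guidance genes at an unadjusted p under 0.05, with CTGF-/- libraries in red on the left of each panel, WT libraries in blue on the right, and bars for the mean and SD (n = 3). The groups are apart in the 10 lower genes and overlap in Ntng2, and CTGF-/- replicate 2 of Sema5a, at 1.94 FPKM, stands far below the rest.

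The semaphorin system, the largest with 28 genes, held 2 genes at the looser threshold, both lower. That is 7.14% of the system, near the 5.49% of all genes tested. Sema3e (chr5:14025276-14256689, plus strand), a secreted semaphorin that binds Plxnd1 without a neuropilin, had 1.31, 1.15 and 1.44 FPKM in CTGF-/- retinas, against 1.53, 1.90 and 1.88 FPKM in WT retinas. It did not overlap, the CTGF-/- mean was 0.734 times the WT mean, and the difference was -0.27 ± 0.10 with an unadjusted p of 0.0337. That p was 0.0701 without CTGF-/- replicate 1, 0.0800 without CTGF-/- replicate 2, 0.103 without WT replicate 2 and 0.0840 without WT replicate 3. Its receptor Plxnd1 had a difference of -0.07 ± 0.12. Sema3f, the class 3 gene with the highest FPKM, had 17.5, 21.3 and 18.2 FPKM in CTGF-/- retinas, against 16.1, 18.8 and 16.1 FPKM in WT retinas, with overlap and a difference of 0.15 ± 0.11.

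Sema5a (chr15:32244810-32696341, plus strand), a transmembrane semaphorin that acts with Sema5b in layering the mouse inner retina, had the largest difference of the 62 genes. It had 5.28, 1.94 and 4.99 FPKM in CTGF-/- retinas, against 6.59, 6.30 and 7.11 FPKM in WT retinas. The groups did not overlap, the CTGF-/- mean was 0.611 times the WT mean, and the difference was -0.67 ± 0.27 with an unadjusted p of 0.0425. CTGF-/- replicate 2 set its size: without that library the difference was -0.32, with an unadjusted p of 0.00934. Leaving out WT replicate 1, 2 or 3 gave a p of 0.0810, 0.0739 or 0.105. Sema5b had 9.21, 10.9 and 8.99 FPKM in CTGF-/- retinas, against 8.95, 10.4 and 11.1 FPKM in WT retinas, with overlap.

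Class 4, 6 and 7 semaphorins, all membrane-bound, had 0 of 11 genes at the looser threshold. Sema4g, the highest class 4 gene, had 12.3, 17.2 and 14.6 FPKM in CTGF-/- retinas, against 12.9, 15.6 and 14.7 FPKM in WT retinas. Sema6a, a plexin-A ligand of the inner retina, had 7.10, 12.5 and 7.72 FPKM in CTGF-/- retinas, against 7.85, 10.1 and 9.24 FPKM in WT retinas, so CTGF-/- libraries held both its lowest and its highest value. Sema7a, which is anchored by lipid and binds Plxnc1, had 21.1, 18.1 and 18.7 FPKM in CTGF-/- retinas, against 18.4, 18.3 and 24.2 FPKM in WT retinas. All of these groups overlapped.

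The semaphorin receptors had 0 genes at the looser threshold. Plxnb2, the highest of the 8 plexins, had 31.6, 37.9 and 31.1 FPKM in CTGF-/- retinas, against 30.9, 34.2 and 27.8 FPKM in WT retinas. The plexins ranged from -0.15 (Plxnc1) to 0.11 (Plxnb2), with a median of -0.01 and 0 genes apart. Nrp2, the higher of the neuropilins, had 3.14, 4.10 and 3.97 FPKM in CTGF-/- retinas, against 3.78, 4.87 and 4.02 FPKM in WT retinas, and Nrp1, also a coreceptor for VEGF, differed by 0.02 ± 0.14. Taking ligands and receptors apart, 5 of 31 receptors were lower and 0 higher, and 5 of 31 ligands were lower and 1 was higher. That is 16.1% lower in either set. Of all genes tested, 5.49% were lower and 3.83% higher.

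Intracellular mediators, coreceptors and other guidance-related proteins were followed in a list of 78 genes, of which 76 were listed and tested. The list is broader than the systems above, since it includes genes such as the Nogo receptor Rtn4r. At the looser threshold 6 were lower and 0 higher, and 53 had a negative difference, with a median of -0.07. The lower share was 7.89%, near the 5.49% of all genes tested, and 69.7% were negative, against 55.1% of all genes tested. The 3 lower genes with the smallest p were Gsk3b, a kinase that regulates microtubules in growth cones (-0.31 ± 0.09, unadjusted p 0.00866), Cdon, a cell surface receptor related to the Robos (-0.26 ± 0.08, unadjusted p 0.0127), and Limk1, the kinase that inactivates cofilin (-0.36 ± 0.11, unadjusted p 0.0138). On the higher side the smallest p belonged to Arhgef11, a guanine nucleotide exchange factor bound by B-class plexins (0.17 ± 0.10, unadjusted p 0.114), Rtn4r, the Nogo receptor (0.28 ± 0.16, unadjusted p 0.122), and Dscaml1, an adhesion protein of retinal neurons (0.22 ± 0.13, unadjusted p 0.123).

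The lower guidance genes shared a property that the choice of members did not use: all but Efnb2 are very long genes. Span is the distance from the first to the last base of the gene in the deposited table, introns included, and 200 kb was chosen as the boundary after the values were seen. The 10 lower genes had a median span of 344 kb, and the 51 genes that did not reach the threshold had one of 36.9 kb. Of the 17 guidance genes of 200 kb or more, 9 were lower at the looser threshold, which is 52.9%, and 0 were higher. All 17 had a negative difference, and in 10 every CTGF-/- library lay below every WT library, as in 30.6% of all tested genes of that span. The 9 were Dcc, Robo2, Sema5a, Robo1, Epha5, Slit2, Epha3, Efna5 and Sema3e, and the other 8 were Epha6, Ephb1, Ntng1, Plxna4, Sema3a, Sema6d, Unc5c and Unc5d. Among the 45 shorter members Efnb2 was lower and Ntng2 higher. All 17 stayed negative with libraries rescaled to the same FPKM total or to the same median, and 16 or 17 did when each library was left out.

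Long genes as a whole ran the same way. Of the 805 genes of 200 kb or more that were tested, 18.1% were lower at the looser threshold, 9 genes were higher, and 669 had a negative difference. Their median difference was -0.13, against -0.27 for the 17 long guidance genes. Among the 5676 genes under 20 kb, 147 were lower and 329 were higher, with a median of 0.04. Without WT replicate 2 the long guidance genes at the looser threshold on the lower side numbered 2, and 8.32% of all long genes were there. Across genes, the difference fitted on the log2 scale and log10 span had a Pearson correlation of -0.56 and a Spearman correlation of -0.58 over the 62 members, and of -0.25 and -0.32 over the 12915 genes tested. These correlations are descriptions, since all genes share the same 6 libraries.

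**Figure D3:**
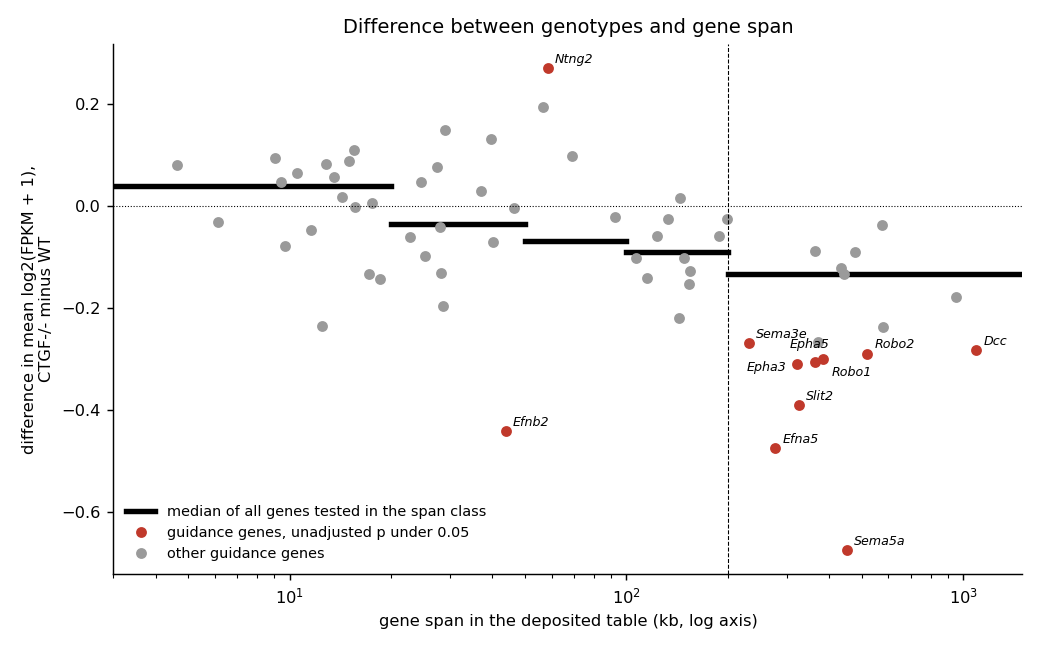
Difference in mean log2(FPKM + 1), CTGF-/- minus WT, against gene span in kb on a log axis, for the 62 guidance genes (red, unadjusted p under 0.05), with black lines for the median of all genes tested in each of 5 span classes. The dashed line marks 200 kb, and all 17 guidance genes to its right lie below 0, while the black lines step from 0.04 under 20 kb to -0.13 at 200 kb or more.

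The library values show the same order. The level of a gene set in a library was taken as the mean of log2(FPKM + 1) over the set, minus the mean of the WT libraries. For the 17 long guidance genes it was -0.28, -0.32 and -0.18 in CTGF-/- replicates 1 to 3, against -0.09, -0.02 and 0.10 in WT replicates 1 to 3. For all 805 long genes it was -0.16, -0.15 and -0.08 in CTGF-/- replicates, against -0.07, 0.01 and 0.06 in WT replicates. Neither set overlapped between the groups, and in both WT replicate 1 was the WT library nearest to the CTGF-/- libraries. The 45 shorter guidance genes overlapped, at -0.11, 0.09 and -0.05 in CTGF-/- replicates and -0.06, 0.07 and -0.01 in WT replicates. Whether the differences of the long guidance genes come from their length or from the cell types they are made in was not tested.

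**Figure D4:**
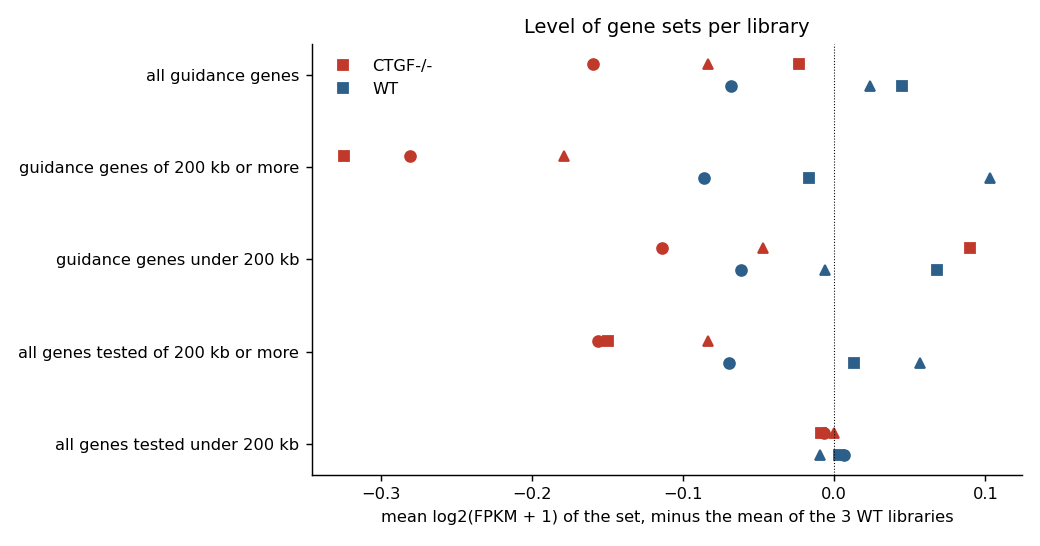
Mean log2(FPKM + 1) of 5 gene sets in each library, relative to the mean of the WT libraries, with CTGF-/- libraries in red above WT libraries in blue (circle, square and triangle for replicates 1 to 3). The 17 long guidance genes separate the groups, from -0.32 to -0.18 in CTGF-/- libraries and from -0.09 to 0.10 in WT libraries, while the 45 shorter ones overlap.

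A shared neighbourhood also links 4 of the long genes. Epha6, Epha3, Robo1 and Robo2 lie in this order within 14.8 Mb of chromosome 16, between 59653483 and 74411825, together with 9 other tested genes. Of these 13 genes 12 had a negative difference, against 55.1% of all genes tested. In 6 every CTGF-/- library lay below every WT library, against 10.9% of all genes tested and 30.6% of those of 200 kb or more. The stretch was bounded by the members themselves, and Epha3, Robo1 and Robo2 are among these 6. The 3 at the looser threshold were Epha3, Robo1 and Robo2 themselves. The long adhesion gene Cadm2, which lies among them, had 29.3, 19.2 and 29.7 FPKM in CTGF-/- retinas, against 30.04, 30.6 and 34.3 FPKM in WT retinas, also without overlap.

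Markers of cell types in the retina were compared in the same libraries. None had an adjusted p under 0.05, and the part of these cell types in the guidance gene differences was not tested. Of all genes tested, 5.49% were lower and 3.83% higher at the looser threshold, and 55.1% had a negative difference. The marker lists are short, so their counts are rough beside these shares. Of 9 ganglion cell markers 3 were lower at the looser threshold and 8 had a negative difference, but their summed level overlapped, at 218 to 344 FPKM in CTGF-/- libraries and 251 to 350 FPKM in WT libraries. Of 8 amacrine and horizontal cell markers 3 were lower, with sums of 138 to 149 FPKM in CTGF-/- libraries and 142 to 179 FPKM in WT libraries. All 8 endothelial markers had a negative difference and 2 were lower, and their sum did not overlap, at 37.0 to 38.1 FPKM in CTGF-/- libraries and 45.2 to 53.6 FPKM in WT libraries. Kdr carried that separation: without it the other 7 summed to 7.20, 10.8 and 7.14 FPKM in CTGF-/- libraries, against 10.8, 7.59 and 21.2 FPKM in WT libraries, with overlap, and 6 of the 8 markers overlapped singly. The 3 astrocyte markers, 2 of them lower, summed to 11.5 to 14.9 FPKM in CTGF-/- libraries and 15.6 to 17.0 FPKM in WT libraries, also without overlap. Of 6 markers of proliferating cells 3 were lower, with sums of 35.9 to 41.1 FPKM in CTGF-/- libraries and 39.2 to 69.0 FPKM in WT libraries. None of these markers was listed at 0 in any library. Of 5 Mueller glia markers 1 was lower, and of 4 bipolar cell, 4 microglia, 3 pericyte, 4 pigment epithelium and 4 erythroid genes tested 0 were lower or higher. Without WT replicate 1 and CTGF-/- replicate 3, the libraries with the highest lens level in their groups, 7 guidance genes were lower at the looser threshold and 0 were higher. Of all genes tested, 2.61% were lower in that fit.

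The transcript table lists 122 transcripts of the 62 genes and 1 of a gene outside them, Sema3d-201, which was too low to be tested. Of these 123, 113 were tested among 25082. Of the 113, 0 had an adjusted p under 0.05, where 0.0239% of all transcripts tested did. At the looser threshold 6 were lower, which is 5.31%, against 2.53% of all transcripts tested, and 0 were higher, against 2.52%. The 6 were Ntng2-210, Epha7-203, Ntng2-202, Efna5-201, Robo2-202 and Efnb2-201. In the authors' deposited table of lower transcripts, 263 in number, Ntng2-210, Epha7-203 and Ntng2-202 appear, and 0 guidance transcripts appear among the 194 in their table of higher ones. The full deposited table lists 26721 transcripts. The authors' lists come from the same 6 libraries, so appearing in them is no separate support. The authors' deposited gene tables, with 16 higher and 14 lower genes, hold 0 members.

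Epha7, an EphA receptor without a difference at the looser threshold for the whole gene, was split between nearly identical transcripts. How its reads were assigned between them could not be checked from FPKM, so a listed 0 need not mean that a transcript was absent. Epha7-203 was listed at 0 in all 3 CTGF-/- libraries, against 2.71, 1.67 and 1.06 FPKM in WT libraries, and its difference was -1.45 ± 0.25 (adjusted p 0.493, unadjusted p 0.00106). Its mean over all 6 libraries, 0.909 FPKM, passed the filter of 0.5 FPKM through the WT libraries alone. A transcript near 0 in both groups could not have been tested. Epha7-201 ran the other way, with 3.57, 1.99 and 2.63 FPKM in CTGF-/- libraries, against 0.803, 1.31 and 2.12 FPKM in WT libraries, overlapping, at 0.65 ± 0.28 (unadjusted p 0.0622). Their sum was 2.73 ± 0.798 FPKM in CTGF-/- retinas and 3.23 ± 0.271 FPKM in WT retinas (SD, n = 3 each), and it overlapped. Both have 17 exons, and they differ in the coding region by 12 bases at the start of an exon at chr4:28947528-28947539 (GRCm38, plus strand), giving 998 residues in Epha7-201 and 994 in Epha7-203. The stretch is shown because it is what sets their coding sequences apart. Both lines run 5′ to 3′ in the transcript with 24 bases on either side, and capitals mark the bases that Epha7-203 lacks.
Epha7-201: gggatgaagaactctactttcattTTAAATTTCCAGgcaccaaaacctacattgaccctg
Epha7-203: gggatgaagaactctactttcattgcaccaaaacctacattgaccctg

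Ntng2-210 had the smallest p of the guidance transcripts, and its FPKM rests on an assignment of reads between near-identical transcripts that could not be checked here. It had 0.0711, 0 and 0.118 FPKM in CTGF-/- libraries, against 2.22, 2.02 and 1.89 FPKM in WT libraries. The groups were far apart, and the difference was -1.52 ± 0.15 (adjusted p 0.126, unadjusted p 6.52e-05). Ntng2-210 was a small part of the gene's output even in WT retinas, where all 5 Ntng2 transcripts summed to 47.1 ± 4.02 FPKM (SD, n = 3), against 48.1 ± 9.25 FPKM in CTGF-/- retinas. Its closest relative, Ntng2-204, had 25.1, 32.3 and 16.03 FPKM in CTGF-/- libraries, against 20.03, 19.6 and 18.1 FPKM in WT libraries, overlapping, at 0.28 ± 0.25.

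The 2 transcripts encode the same length, 530 residues, and differ by a swap of 27 coding bases. Ntng2-204 reads an exon at chr2:29204898-29204924 (GRCm38, minus strand), and Ntng2-210 reads 8 bases at chr2:29207410-29207417 and 19 bases at chr2:29207201-29207219 in its place. The swapped stretch is shown because it tells the transcript listed near 0 in CTGF-/- retinas from the abundant one. Capitals mark the 27 bases in each, written 5′ to 3′ in the transcript with 24 shared bases on either side. Ntng2-210 has the weakest transcript support level in GENCODE M21, 5, and Ntng2-204 has support level 1.
Ntng2-210: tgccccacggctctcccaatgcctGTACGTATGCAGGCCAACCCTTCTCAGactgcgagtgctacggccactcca
Ntng2-204: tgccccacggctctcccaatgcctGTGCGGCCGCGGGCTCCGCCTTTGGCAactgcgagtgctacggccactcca

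Other Ntng2 transcripts ran in opposite directions. Ntng2-202, which encodes 430 residues, had 7.67, 7.85 and 10.1 FPKM in CTGF-/- libraries, against 12.5, 16.4 and 12.03 FPKM in WT libraries, apart, at -0.61 ± 0.17 (unadjusted p 0.0109). Like Efna3-203 below, Ntng2-202 has support level 5 in GENCODE M21, and its share of the Ntng2 reads could not be checked either. Ntng2-201, which encodes 589 residues, had 14.4, 17.6 and 13.0 FPKM in CTGF-/- libraries, against 7.19, 13.4 and 9.86 FPKM in WT libraries, overlapping, at 0.55 ± 0.23 (unadjusted p 0.0565). With Epha7-201, the higher transcripts with the smallest p were Ntng2-201 and Efna3-203, the last at 0.769, 0.968 and 0.752 FPKM in CTGF-/- libraries and 0.576, 0.428 and 0.4995 FPKM in WT libraries (0.28 ± 0.15, unadjusted p 0.109).

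The remaining lower transcripts ran in the direction of their genes. Efna5-201 and Efnb2-201 are the only transcripts listed for Efna5 and Efnb2, so their direction is no result apart from that of the genes. Efna5-201 had 5.40, 4.40 and 4.66 FPKM in CTGF-/- libraries, against 6.94, 7.73 and 6.63 FPKM in WT libraries (-0.48 ± 0.14, unadjusted p 0.0127, and 0.0519 without WT replicate 2). Efnb2-201 had 13.8, 14.1 and 20.1 FPKM in CTGF-/- libraries, against 20.4, 24.9 and 20.7 FPKM in WT libraries (-0.45 ± 0.17, unadjusted p 0.0401, and between 0.0629 and 0.123 when any library but CTGF-/- replicate 3 was left out). Robo2-202 had 8.12, 5.49 and 8.13 FPKM in CTGF-/- libraries, against 10.5, 10.7 and 9.40 FPKM in WT libraries (-0.46 ± 0.17, unadjusted p 0.0375). Leaving out WT replicate 1, 2 or 3 gave a p of 0.0982, 0.103 or 0.0555. Robo2-202 also has support level 5 in GENCODE M21, and its share of the Robo2 reads could not be checked. Guidance transcripts listed at 0 numbered 7, 15 and 4 in CTGF-/- replicates 1 to 3, against 1, 2 and 5 in WT replicates 1 to 3, so CTGF-/- replicate 2 had the most.

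**Figure D5:**
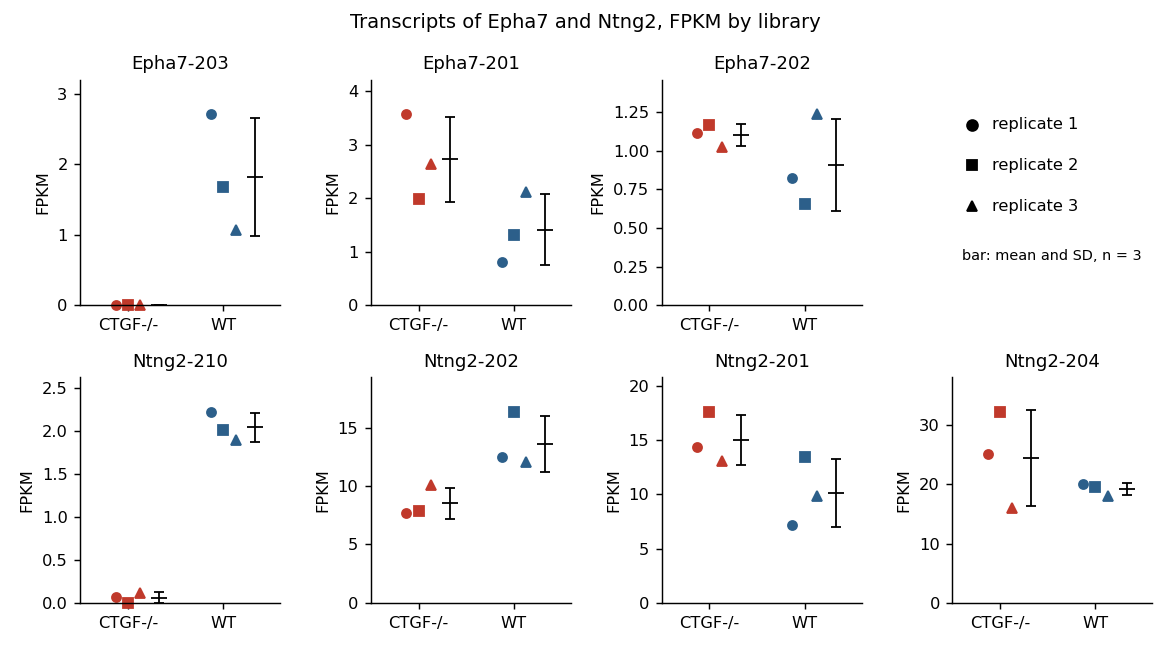
FPKM of the 3 Epha7 transcripts and of 4 of the 5 Ntng2 transcripts, with CTGF-/- libraries in red on the left of each panel, WT libraries in blue on the right, and bars for the mean and SD (n = 3). Epha7-203 is at 0 in every CTGF-/- library and Ntng2-210 is at or under 0.118 FPKM, while Epha7-201, Epha7-202, Ntng2-201 and Ntng2-204 overlap between the groups.

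Promoters were searched for the TEAD motif CATTCC on both strands (GGAATG on the other), because Ctgf is a textbook target of TEAD factors. RefSeq windows of GRCm38.p6, from 250 bases before to 50 after the start, matched 53 members, and 6 of them held the motif, which is 11.3%, against 11.5% of the 9963 genes tested with such a window. Of the 9 lower genes with a window, 2 held it. These were Epha3, with the motif 244 bases before the start, and Efnb2, with it 105 bases before. Both windows are printed 5′ to 3′ on the strand of the gene with the motif in capitals, Epha3 at chr16:63864126-63864425 (minus strand) and Efnb2 at chr8:8661193-8661492 (minus strand). A match describes the letters and not binding.
Epha3: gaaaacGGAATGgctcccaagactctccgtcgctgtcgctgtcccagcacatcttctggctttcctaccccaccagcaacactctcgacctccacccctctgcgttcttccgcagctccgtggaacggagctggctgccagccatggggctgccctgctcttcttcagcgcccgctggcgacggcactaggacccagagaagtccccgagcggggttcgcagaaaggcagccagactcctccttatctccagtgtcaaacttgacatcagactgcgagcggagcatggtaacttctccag
Efnb2: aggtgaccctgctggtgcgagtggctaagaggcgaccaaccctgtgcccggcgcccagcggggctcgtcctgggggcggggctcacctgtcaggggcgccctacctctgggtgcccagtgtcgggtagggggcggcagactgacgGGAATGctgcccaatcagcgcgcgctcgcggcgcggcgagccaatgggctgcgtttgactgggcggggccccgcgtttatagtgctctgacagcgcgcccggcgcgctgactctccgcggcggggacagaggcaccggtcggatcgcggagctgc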

How the data were processed

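Polyadenylated RNA of 6 retina libraries was sequenced. Per the submitters' processing notes, reads were checked with FastQC, trimmed with cutadapt, aligned to GRCm38 with HISAT2 and quantified with StringTie, and per the series' design text the authors computed FPKM and differential lists with Ballgown. Versions of these tools are not given in the sources at hand. The authors deposited FPKM per gene and transcript, and the deposited lists add the authors' log2 fold changes, which were used only for membership of the lists. In both tables the higher group mean was never under 0.5 FPKM, and FPKM carry no depth.

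Genes and transcripts averaging 0.5 FPKM or more across the 6 libraries entered the test, on log2(FPKM + 1) with limma 3.58.1 in R 4.3.3 (lmFit, eBayes with trend), over the whole tables, with Benjamini-Hochberg adjustment at 0.05, and the fit was checked on simulated data. Differences are CTGF-/- minus WT on that scale, which understates changes of low genes. Errors are SE for differences and SD for FPKM. The members and lists were chosen with earlier results of these data known. Values in every library are given for members at an unadjusted p under 0.05 and the highest member of each family, and for the 6 lower transcripts and the 3 with the smallest p on either side. The other members are given by ranges, with values where a pair or role needs them. Ntng2-204, Cadm2 and the values of members just outside the threshold were picked after they were seen. All 62 gene IDs are in GENCODE M21, 56 at the same locus. Alternatives changed the pseudocount, the filter, the library scaling, the variance moderation, the replicate block and the libraries used. The results of 2 further retina markers are not reported here.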

Additional observations from a re-analysis of the deposited data

How the results depend on the processing

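The count of guidance genes at an adjusted p under 0.05 was 0 under all 13 alternatives, and 0 named differences changed sign among the genes at the looser threshold. The count at the looser threshold, 11 with all libraries, was 7 without variance moderation (5 of the 11 and 2 others, with Efnb2, Epha5, Ntng2, Robo1, Sema5a and Slit2 lost), 7 without WT replicate 1 and CTGF-/- replicate 3 together (6 of the 11 and 1 other), and 3 to 12 when each library was left out. Of all genes tested, 5.12% were lower without variance moderation and 2.61% without WT replicate 1 and CTGF-/- replicate 3 together. Over the 11 genes and 13 alternatives, 98 of 143 results kept an unadjusted p under 0.05 and 45 did not. With every library rescaled to the same FPKM total, the median difference of the members was -0.13 and that of all genes -0.09, with 13 members lower and 0 higher, and 185 genes higher and 1294 lower in the whole table, against 495 higher and 709 lower as deposited. With the same median FPKM the split was 632 higher and 538 lower. The labels give both groups the same replicate numbers, but same-numbered libraries did not deviate together (correlations 0.01, 0.17 and -0.16 for numbers 1 to 3). With the number as a replicate block, 1 guidance gene was higher and 9 were lower at the looser threshold, 9 of these 10 also without the block. Of all genes tested, 5.28% were lower with the block. The causes of these shifts were not tested. FPKM without counts leave the precision of genes near 1 FPKM unknown, and 3 libraries per group limit the rest.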
